A study of Mus musculus with 6 samples.

Results

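The 7 genes Tmem119, Cx3cr1, Sall1, Olfml3, Fcrls, Selplg and Slc2a5 are widely used to tell resting, or homeostatic, microglia from other cells. They were taken by gene name from the 26554 features of the deposited tables, and all 7 were found and had enough counts to be tested. The libraries come from the ventral posterolateral and ventral posteromedial thalamus (VPL/VPM), through which touch and pain signals pass to the cortex. The mice were wild-type C57 animals, used as a model of the pain that can follow a thalamic stroke. In the collagenase group (n = 3 libraries) the right VPL/VPM had received 10 nL with 0.01 U of type IV collagenase, an enzyme that opens vessel walls and causes a small bleed. In the saline group (n = 3 libraries) it had received 10 nL of saline. Tissue of both groups was taken at day 14. The labels give neither age nor sex, and do not say whether a library holds 1 animal or several, so a p-value here sets a difference against the spread of these libraries, which may be technical. Both groups had an injection, and uninjected tissue was not analysed here.

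Microglia are the resident macrophages of the brain. Their resting programme depends on signals from the surrounding tissue, mainly transforming growth factor beta and the ligands of the receptor Csf1r. In many injury and disease models, microglia near damage lower genes of this programme and turn on a second set, known as disease-associated genes, while macrophages that come from blood usually express little of it. The 7 genes do different work. Cx3cr1 is the receptor of fractalkine, a chemokine made by neurons. Fcrls is a scavenger-receptor-like surface protein related to the Fc receptors. Selplg (PSGL-1) binds selectins and is also found on most blood leukocytes. Tmem119 is a membrane protein used as a microglial marker. Slc2a5 (GLUT5) carries fructose. Olfml3 is a secreted protein of the extracellular matrix, and Sall1 is a zinc finger transcription factor that microglia need for their identity in mice.

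At 14 days, 3 of the 7 genes rose after collagenase, none fell, and 4 did not pass the test. Fcrls rose 2.44-fold, Cx3cr1 2.05-fold and Olfml3 1.98-fold. Tmem119, Selplg and Sall1 had positive log2 fold changes of 0.51, 0.43 and 0.30 that did not pass, and Slc2a5 had one of -0.19. The median log2 fold change of the 7 was 0.51, against -0.02 over all 17240 genes tested. A gene was called when the p of edgeR's quasi-likelihood test, adjusted by Benjamini-Hochberg over all tested genes, was under 0.05. By that rule 2.41% of all tested genes were called, 2.12% as higher and 0.290% as lower. Single libraries moved the count of 3. Fcrls alone passed without saline replicate 1 (0.483% of all tested genes called) or without collagenase replicate 2 (0.810%). Fcrls and Cx3cr1 passed without saline replicate 2 (1.98%), collagenase replicate 1 (1.19%) or collagenase replicate 3 (1.21%). Without saline replicate 3 (5.21%) Selplg joined the 3. In bulk tissue, fewer cells of a type and less RNA per cell cannot be told apart, and neither can more cells and more RNA per cell.

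**Figure D1:**
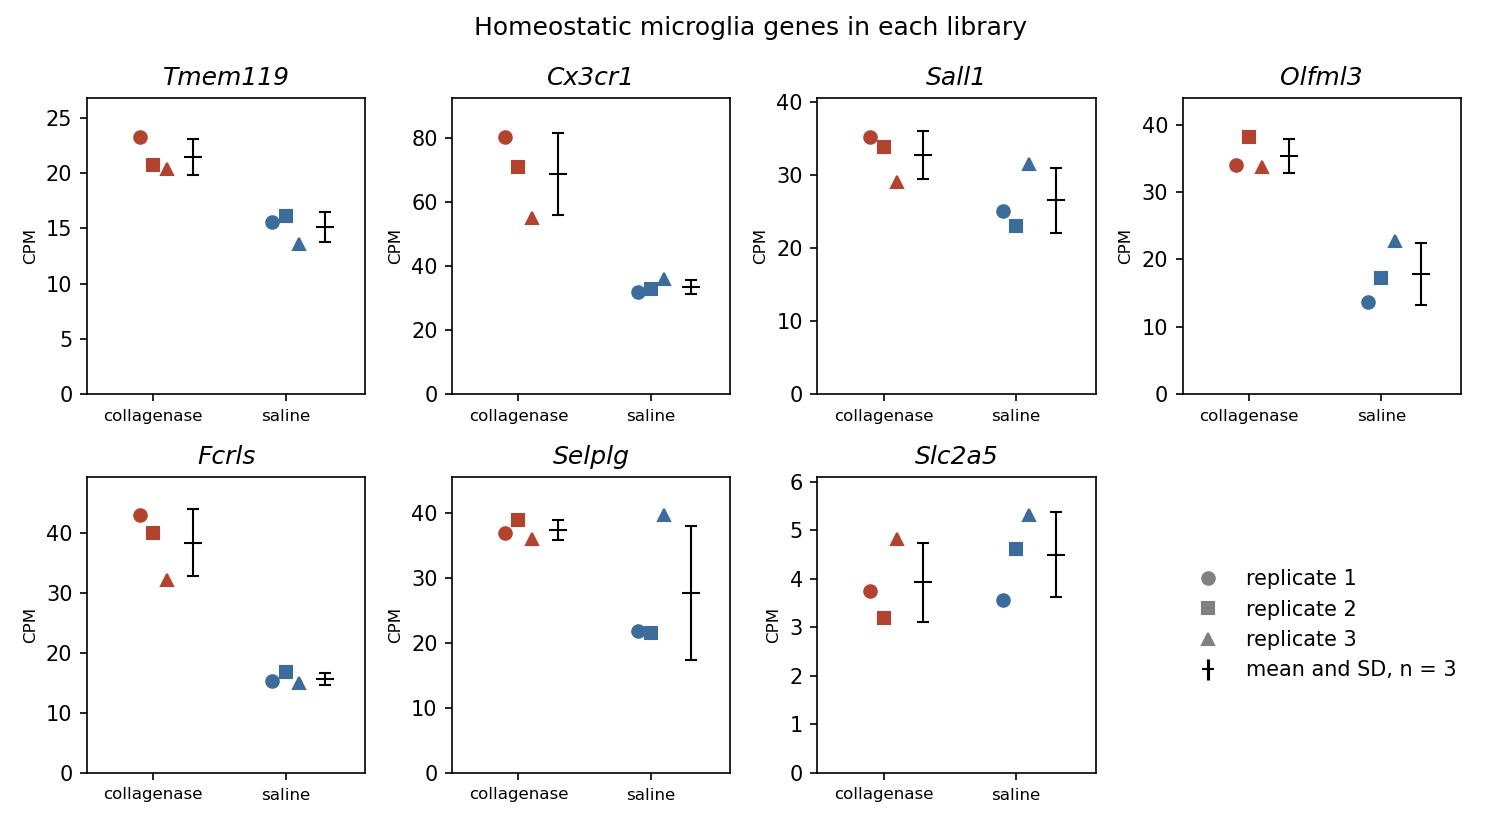
Level of each of the 7 genes in depth-scaled counts (CPM, y axis from 0, one panel a gene) in the 3 collagenase libraries (left) and the 3 saline libraries (right), with points for libraries and black bars for the mean and SD (n = 3). The collagenase points lie above all saline points for Fcrls, Cx3cr1, Olfml3 and Tmem119, and the groups overlap for Selplg, Sall1 and Slc2a5.

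Among the surface receptors, Fcrls had the smallest p of the 7 genes. It measured 43.0, 40.0 and 32.2 CPM (the usual depth-scaled count, with edgeR's TMM factors) in collagenase replicates 1, 2 and 3, against 15.4, 16.9 and 14.9 CPM in saline replicates 1, 2 and 3. Every collagenase library lay well above every saline library, and the saline libraries lay close together. Fcrls averaged 38.4 ± 5.59 CPM after collagenase and 15.7 ± 1.02 CPM after saline (SD, n = 3 each). On the log2 scale the fold change was 1.29 with a standard error (SE) of 0.13, and its 95% interval ran from 0.98 to 1.59. The edgeR adjusted p was 0.00325, which put Fcrls at rank 41 by p. The call held when any one library was left out, with log2 fold changes of 1.20 to 1.40.

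Cx3cr1 measured 80.4, 70.9 and 55.2 CPM in collagenase replicates 1, 2 and 3, against 32.0, 32.7 and 35.9 CPM in saline replicates 1, 2 and 3. The groups did not overlap, and the spread was wider after collagenase, where replicate 3 was lowest. The mean was 68.9 ± 12.8 CPM after collagenase and 33.5 ± 2.10 CPM after saline (SD, n = 3 each). The fitted log2 fold change was 1.04 (SE 0.15), and the edgeR adjusted p was 0.0119. The call was lost without saline replicate 1 (edgeR adjusted p = 0.0815) or without collagenase replicate 2 (edgeR adjusted p = 0.0574). Cx3cr1 is also made by blood monocytes, so the monocyte values given further on stand beside its rise. In the annotation Cx3cr1 shares exon bases with the antisense gene Gm33858, and whether the counting told the strands apart is not known.

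Olfml3, the secreted matrix protein, measured 34.1, 38.2 and 33.8 CPM in collagenase replicates 1, 2 and 3, against 13.6, 17.3 and 22.7 CPM in saline replicates 1, 2 and 3. Here the collagenase libraries lay close together and the saline libraries were spread, with saline replicate 3 nearest to the collagenase group but still below it. Olfml3 averaged 35.4 ± 2.48 CPM after collagenase and 17.9 ± 4.57 CPM after saline (SD, n = 3 each). Its log2 fold change was 0.99 (SE 0.18) with an edgeR adjusted p of 0.0301, and this was the least stable of the 3 rises. Leaving out saline replicate 3 kept the call, and leaving out any other single library ended it, with log2 fold changes of 0.82 to 1.20 over the 6 fits.

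Tmem119 measured 23.3, 20.8 and 20.4 CPM in collagenase replicates 1, 2 and 3, against 15.6, 16.1 and 13.6 CPM in saline replicates 1, 2 and 3. Its groups did not overlap either, yet the difference was smaller: the log2 fold change was 0.51 (SE 0.12), the 95% interval ran from 0.23 to 0.79 and the edgeR adjusted p was 0.0907. DESeq2, which called 4.00% of the genes it tested, called Tmem119 too, at 0.51 on the log2 scale (Benjamini-Hochberg adjusted p = 0.0189). In CPM, 4 of the 7 genes were higher in every collagenase library than in any saline library, as were 10.1% of all tested genes.

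Selplg, the selectin ligand, measured 37.0, 39.0 and 36.0 CPM in collagenase replicates 1, 2 and 3, against 21.9, 21.6 and 39.7 CPM in saline replicates 1, 2 and 3. The saline libraries split in CPM, since replicate 3 was higher than every collagenase library and the other saline libraries were well below. In the authors' FPKM (fragments scaled to transcript length and library size), saline replicate 3 was at 18.3. Collagenase replicates 1, 2 and 3 were at 20.4, 20.3 and 18.8, so the groups did not overlap on that scale. The log2 fold change was 0.43 (SE 0.23), its 95% interval ran from -0.09 to 0.95, and the edgeR adjusted p was 0.521. Without saline replicate 3 it was 0.78 with an edgeR adjusted p of 0.00624, so that 1 library decided whether Selplg passed.

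Sall1, the transcription factor, measured 35.3, 33.9 and 29.1 CPM in collagenase replicates 1, 2 and 3, against 25.1, 23.1 and 31.6 CPM in saline replicates 1, 2 and 3. Saline replicate 3 was again the highest of its group and lay within the collagenase range in CPM. In FPKM the groups did not overlap, at 5.28 to 6.84 after collagenase and 4.19 to 5.13 after saline. On the log2 scale the difference was 0.30 (SE 0.14), its 95% interval ran from -0.03 to 0.63, and the edgeR adjusted p was 0.464. The fructose transporter Slc2a5 was the lowest of the 7 genes, at 3.76, 3.20 and 4.82 CPM in collagenase replicates 1, 2 and 3, against 3.56, 4.63 and 5.31 CPM in saline replicates 1, 2 and 3. These groups overlapped, and the log2 fold change was -0.19 (SE 0.23), with an interval that ran from -0.73 to 0.34 (95%) and an edgeR adjusted p of 0.831. The interval holds a fall to 0.602 of the saline level as well as a rise to 1.27 times that level.

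**Figure D2:**
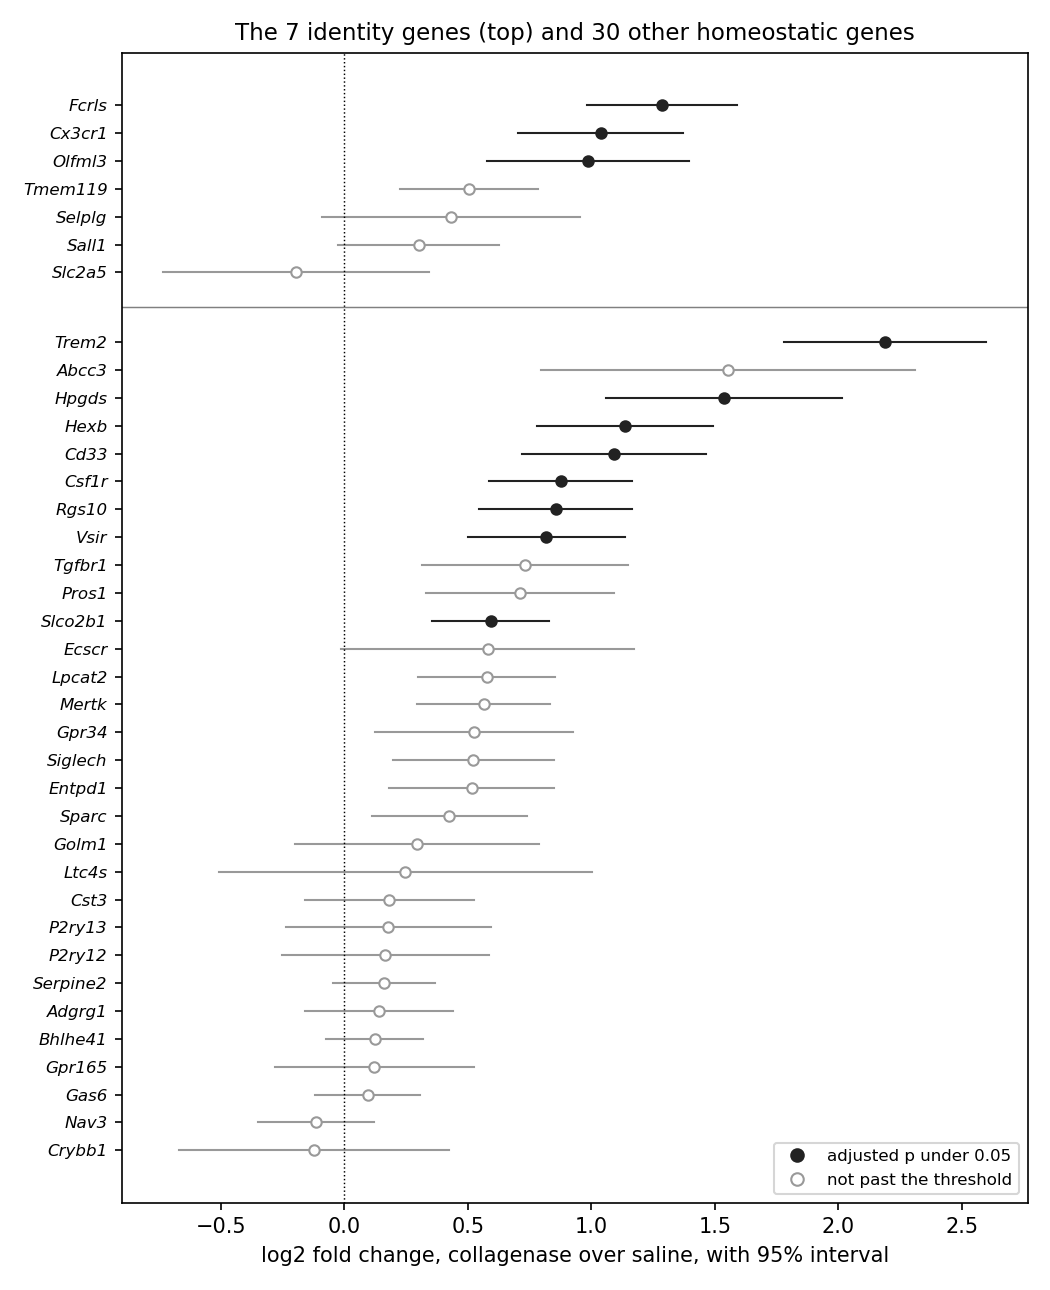
Log2 fold change, collagenase over saline (x axis), of each of the 7 genes (top) and of 30 other genes of homeostatic microglia (below). Each has its 95% interval from edgeR, and filled points mark an adjusted p under 0.05. Of the 7, Fcrls (1.29), Cx3cr1 (1.04) and Olfml3 (0.99) passed, and Tmem119 (0.51) had an interval above 0 and did not pass. The intervals of Selplg, Sall1 and Slc2a5 cross 0.

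The genes lie on several chromosomes of GRCm38, and all 7 are protein-coding. Fcrls spans positions 87250758 to 87263738 and Olfml3 positions 103722222 to 103738001 of chromosome 3, both on the minus strand. Cx3cr1 spans 119901616 to 120069879 of chromosome 9 on the minus strand, Sall1 spans 89027235 to 89044162 of chromosome 8 on the minus strand, and Slc2a5 spans 150119283 to 150144169 of chromosome 4 on the plus strand. Tmem119 (113793729 to 113800516) and Selplg (113818536 to 113832644) are neighbours on the minus strand of chromosome 5, 18019 bases apart, with 1 annotated gene between them, the processed pseudogene Gm19931. The neighbours differed in their libraries: in CPM, saline replicate 3 was the lowest of all 6 for Tmem119 and the highest of all 6 for Selplg. In FPKM it was also the lowest for Tmem119, but for Selplg it was the highest of the saline libraries only.

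Promoter sequences were matched for 5 of the 7 genes. The stretches below are the 250 bases before the RefSeq start site of the 3 genes that rose, and of Slc2a5, which had the lowest log2 fold change, so that their letters can be set side by side. They are from RefSeq (GRCm38.p6), 5′ to 3′ on the gene's own strand. Capitals mark each match, on either strand, to 2 forms of the core bound by PU.1, the macrophage transcription factor that Spi1 encodes: GAGGAA, and AGGAAG, or CTTCCT where it is on the other strand. AGGAAG was added after the sequences had been seen. RefSeq start sites can differ from the gene spans given above. The Cx3cr1 window lies wholly inside its gene span, and the Fcrls and Slc2a5 windows lie partly inside theirs. Only the Olfml3 window lies wholly before its span.
Fcrls chr3:87263525-87263774, minus strand: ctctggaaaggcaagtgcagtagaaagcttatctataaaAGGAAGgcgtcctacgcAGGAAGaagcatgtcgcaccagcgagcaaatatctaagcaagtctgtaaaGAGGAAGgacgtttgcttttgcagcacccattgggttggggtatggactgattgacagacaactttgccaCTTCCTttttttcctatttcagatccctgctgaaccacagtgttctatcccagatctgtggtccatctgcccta
Olfml3 chr3:103738002-103738251, minus strand: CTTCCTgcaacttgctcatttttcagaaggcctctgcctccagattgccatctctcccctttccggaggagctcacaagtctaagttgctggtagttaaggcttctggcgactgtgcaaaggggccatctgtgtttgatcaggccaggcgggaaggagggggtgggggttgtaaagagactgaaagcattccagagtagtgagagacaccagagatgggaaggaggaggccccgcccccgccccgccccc
Cx3cr1 chr9:120068297-120068546, minus strand: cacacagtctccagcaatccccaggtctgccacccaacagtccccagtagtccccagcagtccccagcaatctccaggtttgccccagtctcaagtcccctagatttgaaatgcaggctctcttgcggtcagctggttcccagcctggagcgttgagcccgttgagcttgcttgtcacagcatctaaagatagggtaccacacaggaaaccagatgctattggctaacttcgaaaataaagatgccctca
Slc2a5 chr4:150119094-150119343, plus strand: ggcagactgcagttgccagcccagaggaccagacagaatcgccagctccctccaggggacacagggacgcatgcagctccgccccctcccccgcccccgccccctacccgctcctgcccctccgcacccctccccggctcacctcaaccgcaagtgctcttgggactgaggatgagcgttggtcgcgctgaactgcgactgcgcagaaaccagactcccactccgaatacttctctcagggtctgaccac

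Fcrls held 4 matches to AGGAAG, and at 1 of them the letters GAGGAAG hold both forms, so those matches overlap. All Fcrls matches lie inside the gene span given above, which reaches further upstream than the RefSeq start site. Olfml3 held 1 match, on the other strand at the far end of the window, and Cx3cr1 and Slc2a5 held none. Among the 5 matched genes GAGGAA was found in 1 and AGGAAG in 3, the third being Sall1 at 1 of its 3 start sites. Of 32851 mouse promoter windows of the same length, 23.3% held GAGGAA and 29.5% held AGGAAG on either strand. Those shares are per window, whereas the 5 genes were counted over 7 start sites. AGGAAG was also chosen with these sequences in view, so no enrichment can be read from the counts. The composite site of PU.1 and IRF factors (EICE motif, both strands) was found in none of the 5 and in 2.3% of all windows. The windows also differed in base composition, with 46.8% G and C in Fcrls, 53.6% in Cx3cr1, 57.6% in Olfml3 and 66.4% in Slc2a5. A match describes letters only.

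Levels of different genes were compared per length, with the FPKM values (fragments scaled to transcript length and library size) that the authors deposited. The length implied by a gene's count and FPKM varied only 1.02- to 1.08-fold between libraries. After collagenase the order of mean FPKM was Selplg at 19.8, Cx3cr1 at 17.7, Fcrls at 16.6, Tmem119 at 9.43, Olfml3 at 6.32, Sall1 at 6.10 and Slc2a5 at 1.21. The ranges of the leading 3 overlapped over the libraries, as did those of Olfml3 and Sall1, so neither order is clear. After saline the order of mean FPKM was Selplg at 13.6, Cx3cr1 at 7.94, Fcrls at 6.36, Tmem119 at 6.21, Sall1 at 4.60, Olfml3 at 2.97 and Slc2a5 at 1.29. In that group Fcrls and Tmem119 overlapped, and every other pair of neighbours in the order was separate.

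The make-up of the set differed between the groups. Summed over the 7 genes, the level was 86.1, 77.9 and 67.5 FPKM in collagenase replicates 1, 2 and 3, against 40.0, 42.1 and 46.7 FPKM in saline replicates 1, 2 and 3. Fcrls took 20.0% to 22.4% of that sum after collagenase and 12.01% to 16.8% after saline. Cx3cr1 took 20.5% to 24.7% after collagenase and 16.1% to 20.0% after saline. Shares moved the other way for the transcription factor and the transporter: Sall1 took 7.82% to 7.95% after collagenase and 9.95% to 11.2% after saline, and Slc2a5 took 1.24% to 2.16% after collagenase and 2.64% to 3.31% after saline. A share can be lower while a gene's own level is not: Sall1 was at 5.28 to 6.84 FPKM after collagenase and 4.19 to 5.13 FPKM after saline. The shares of Tmem119, Olfml3 and Selplg overlapped between the groups.

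General macrophage genes were read beside the 7. Of 15 pan-myeloid genes, expressed by microglia and by blood-derived macrophages alike, 14 rose and none fell, with a median log2 fold change of 1.83 that lies above the value of each of the 7. Among them were C1qa, a subunit of complement C1q, at 2.07 (SE 0.16), and Tyrobp, the signalling adaptor of Trem2, at 2.13 (SE 0.18). Their summed level was 863 to 1226 CPM in the collagenase libraries and 282 to 363 CPM in the saline libraries. Itgam, the remaining gene, had a log2 fold change of 1.14 and an edgeR adjusted p of 0.0732. The count of 14 was 5 without saline replicate 1 and between 10 and 15 when any other library was left out.

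Each of the 7 genes was then set against the median log2 CPM of the 15 pan-myeloid genes in the same library. On this relative log2 scale Slc2a5 was 2.04 lower after collagenase than after saline, at -3.07, -3.08 and -2.43 in collagenase replicates 1, 2 and 3 and -0.72, -0.70 and -1.05 in saline replicates 1, 2 and 3. The difference of group means was -1.54 for Sall1, -1.36 for Selplg, -1.34 for Tmem119 and -0.83 for both Olfml3 and Cx3cr1. For these 6 genes the groups did not overlap, and the two-sided exact permutation p was 0.1, the smallest that 3 against 3 libraries allow. Fcrls differed least, by -0.57, and its groups overlapped (exact permutation p = 0.2). The pan-myeloid median itself was 4.72 to 5.00 log2 CPM after collagenase and 2.57 to 3.47 log2 CPM after saline. A gene whose own level did not change therefore lies lower after collagenase on this scale. How many of all tested genes would be separate in this way was not computed, so the 6 cannot be read as a trait of these genes.

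**Figure D3:**
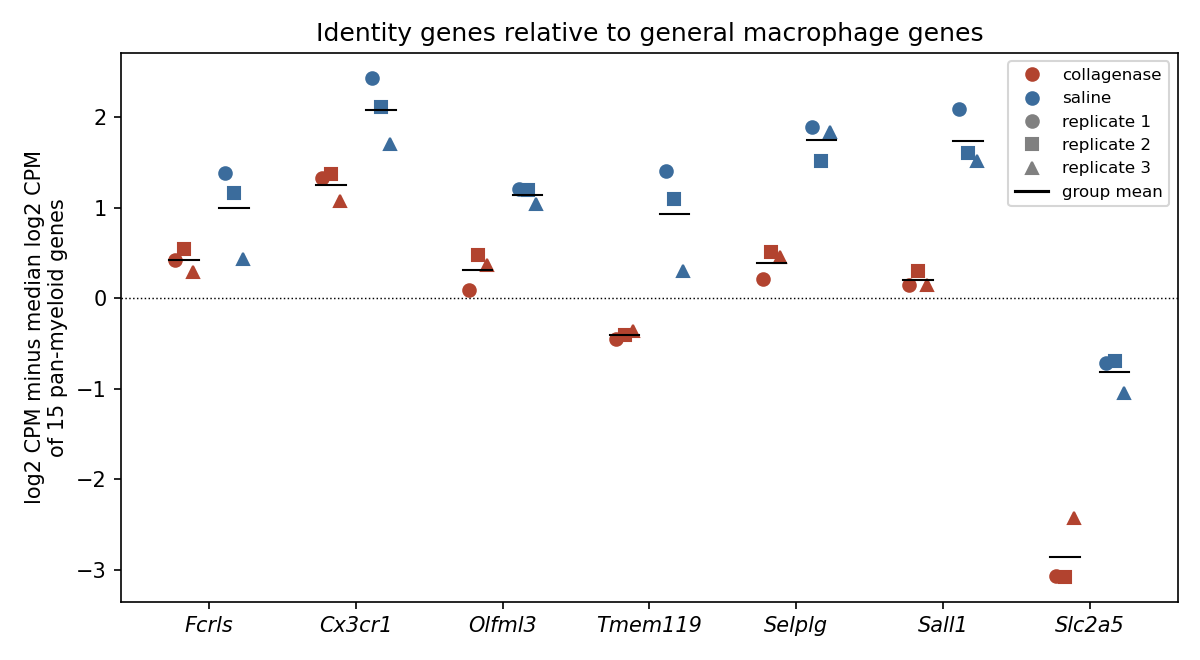
Log2 CPM of each of the 7 genes minus the median log2 CPM of 15 pan-myeloid genes in the same library (y axis), with collagenase libraries left of saline libraries, shapes for replicates and lines for group means. The collagenase points lie below all saline points for every gene except Fcrls, where saline replicate 3 (0.44) lies within the collagenase range of 0.29 to 0.54.

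This comparison depended on which macrophage genes served as the yardstick. Csf1r, the receptor that microglia need to survive, rose by a log2 fold change of 0.88 (SE 0.13), less than the other 14 pan-myeloid genes. Against Csf1r alone, Sall1, Selplg, Tmem119 and Slc2a5 were still lower after collagenase, by -0.56, -0.37, -0.36 and -1.06 on the log2 scale. Fcrls, Cx3cr1 and Olfml3 turned round, to 0.41, 0.16 and 0.15 higher.

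A further 30 genes of homeostatic microglia were counted in the same way. Of these, 8 rose and none fell, 28 had a positive log2 fold change, and their median of 0.52 compares with 0.51 for the 7 genes. In bulk tissue other cells may also make some of the 30, which would bear on that median. Their mean saline levels ran from 1.97 CPM for Abcc3 to 736 CPM for Cst3 and 768 CPM for Sparc. The part of other cells was not tested. Among the genes that rose were Trem2, Hpgds, Cd33, Csf1r, Rgs10, Vsir and Slco2b1. Trem2, a lipid receptor, measured 43.8, 35.8 and 27.5 CPM in collagenase replicates 1, 2 and 3, against 7.28, 8.41 and 7.80 CPM in saline replicates 1, 2 and 3, a log2 fold change of 2.19 (SE 0.18). Trem2 and Csf1r stand on more than one of the lists. Hpgds, a prostaglandin D synthase, rose by 1.54 (SE 0.21) on the log2 scale. The count of 8 was 1 without saline replicate 1, 2 without collagenase replicate 2, 4 without collagenase replicate 1 and 13 without saline replicate 3 or with DESeq2.

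The purinergic receptor P2ry12, another classical marker, measured 34.9, 34.3 and 35.0 CPM in collagenase replicates 1, 2 and 3, against 26.4, 25.3 and 41.2 CPM in saline replicates 1, 2 and 3. As with Selplg and Sall1, saline replicate 3 stood above the other saline libraries. Its log2 fold change of 0.17 (SE 0.18) did not pass (edgeR adjusted p = 0.809), but without saline replicate 3 it was 0.43 with an edgeR adjusted p of 0.0352. The lectin Siglech and the receptor Gpr34 had log2 fold changes of 0.52 and 0.53 with no overlap between groups, and did not pass. Crybb1 and Nav3 were the only genes of the 30 with negative log2 fold changes, of -0.12 each, and neither passed.

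Of 24 genes of disease-associated microglia, which become active near damage, 19 rose and none fell, with a median log2 fold change of 1.39. The count was 12 without saline replicate 1 or without collagenase replicate 2, and 14 to 18 without any other single library. Clec7a, a receptor for fungal glucans, measured 48.9, 27.4 and 21.7 CPM in collagenase replicates 1, 2 and 3, against 0.293, 0.204 and 0.293 CPM in saline replicates 1, 2 and 3. Trem2 and Tyrobp are on this list as well. Fcrls, Cx3cr1 and Olfml3, with log2 fold changes of 0.99 to 1.29, all lay below that list's median, as did the other 4 of the 7 genes.

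**Figure D4:**
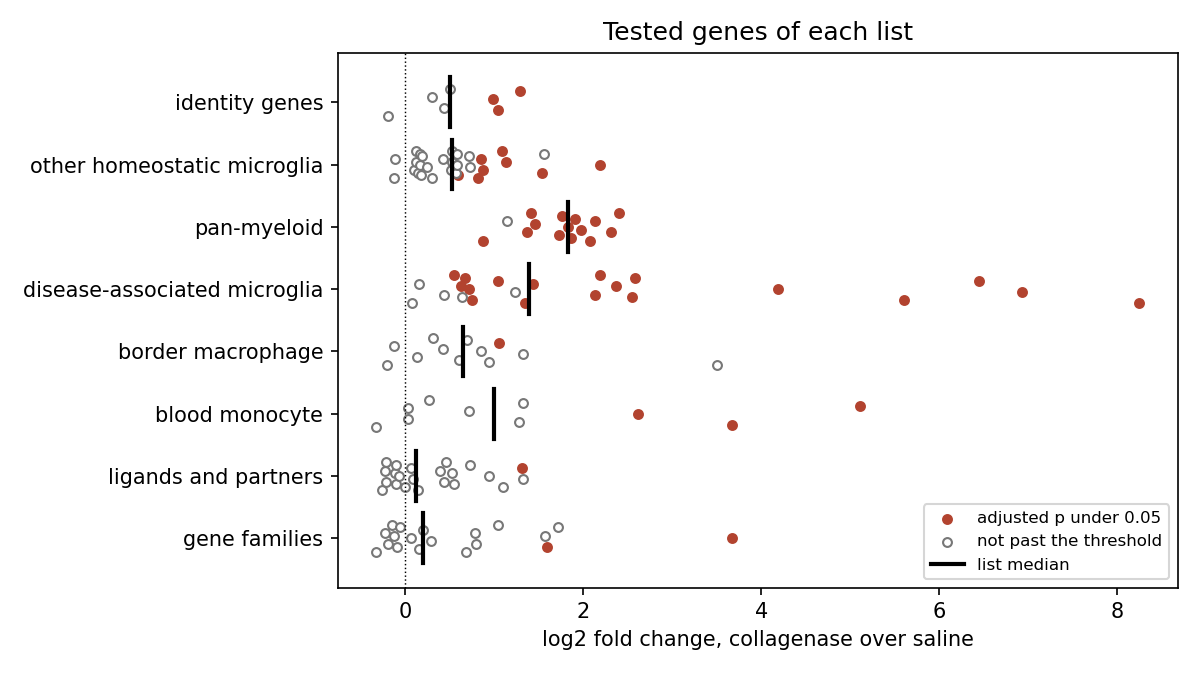
Log2 fold change, collagenase over saline (x axis), of each tested gene of 8 lists (rows), with filled points for an adjusted p under 0.05 and a bar at the median; Atp6v0d2, at 0 in all saline libraries, is left out of the points. The medians were 0.51 for the 7 identity genes, 0.52 for other homeostatic genes, 1.83 for pan-myeloid genes and 1.39 for disease-associated genes.

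Among the ligands, receptors and enzymes that act with the 7 proteins, 1 of 22 tested genes rose and none fell, with a median log2 fold change of 0.12. The one that rose was Tgfb1, a ligand that maintains the resting programme, with 17.3, 13.1 and 14.1 CPM in collagenase replicates 1, 2 and 3, against 4.91, 5.88 and 7.19 CPM in saline replicates 1, 2 and 3. Its log2 fold change was 1.31 (SE 0.19) and its edgeR adjusted p 0.0126. The call was lost without saline replicate 1, and with DESeq2 4 of the 22 rose. The receptor subunits Tgfbr1 and Tgfbr2 were higher in every collagenase library, with log2 fold changes of 0.73 and 0.55, and did not pass. Cx3cl1, which encodes fractalkine, averaged 461 ± 45.5 CPM after collagenase and 541 ± 118 CPM after saline (SD, n = 3 each), and its log2 fold change of -0.23 had an edgeR adjusted p of 0.671. Gcnt1, a glycosyltransferase that helps make the selectin-binding sugars of PSGL-1, had a log2 fold change of 1.10 and did not pass (edgeR adjusted p = 0.0729). The endothelial selectins Selp and Sele had too few counts to be tested: Sele had 10, 4 and 19 counts in the collagenase libraries and 0 in each saline library.

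Relatives of the 7 genes by family were also read. Of 19 tested genes of the same families 2 rose and none fell, with a median log2 fold change of 0.20. Both were chemokine receptors, as Cx3cr1 is: Ccr2, the receptor of inflammatory monocytes, at 3.67 (SE 0.57), and Cxcr4 at 1.59 (SE 0.30). Neither passed without saline replicate 1 or without collagenase replicate 3, and Cxcr4 passed in only 1 of the 6 fits with a library left out. The glucose transporters Slc2a1 and Slc2a3, relatives of Slc2a5, had log2 fold changes of 0.20 and -0.19, and Sall3, a relative of Sall1, one of 0.29, and none of these 3 passed.

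Markers of other cells moved as well, and their part in the rises of Cx3cr1, Fcrls and Olfml3 was not tested. Of 10 tested blood monocyte markers 3 rose, namely Lyz2, Ccr2 and Hp, and the summed level of the list was 262 to 562 CPM in collagenase libraries and 81.5 to 117 CPM in saline libraries. The rise of Lyz2 held in all 6 fits with a library left out, that of Ccr2 was lost in 2 of them and that of Hp in 5, and the count was 1 without saline replicate 1 or without collagenase replicate 3. Lyz2, lysozyme, which reactive microglia also make, measured 447, 269 and 183 CPM in collagenase replicates 1, 2 and 3, against 8.11, 10.5 and 7.36 CPM in saline replicates 1, 2 and 3. Ly6c2, the defining surface marker of inflammatory monocytes, averaged 2.79 ± 1.16 CPM after collagenase and 2.74 ± 0.769 CPM after saline (SD, n = 3 each). Of 12 tested markers of border macrophages 1 rose, the scavenger receptor Stab1, with summed levels of 40.0 to 58.3 CPM in collagenase libraries and 20.3 to 30.8 CPM in saline libraries. The call of Stab1 was lost in 3 of the 6 fits with a library left out, namely without saline replicate 1, collagenase replicate 1 or collagenase replicate 2.

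Selplg is abundant on T cells, and of 12 listed T and NK cell markers 7 could be tested and 5 rose. That count was 0 without saline replicate 1, 2 without collagenase replicate 3, 3 without collagenase replicate 1 or 2, and 1 on the log2(FPKM + 1) scale. The summed level of that list was 5.65 to 14.4 CPM in collagenase libraries and 0.873 to 13.3 CPM in saline libraries. The T cell receptor subunits Cd3e and Cd3g had no count in any saline library and 0.389 to 1.28 CPM after collagenase. Cd8a and Nkg7 were at 0 in every saline library too. These genes passed the filter on low counts only through the collagenase libraries, so the count of 5 is no measure of the whole list. Cd4, which some macrophages and neurons also make, accounted for the high saline value, with 13.1 CPM in saline replicate 3 against 0.608 and 0.378 CPM in saline replicates 1 and 2. That is the saline library in which Selplg was highest, although Cd3e and Cd3g were at 0 there. Of 10 listed neutrophil markers 4 could be tested, and of these only Mmp8 rose. It had no count in any saline library and 0.337 to 0.565 CPM after collagenase, so it too passed the filter only through that group. The list had a summed level of 3.41 to 6.84 CPM after collagenase and 1.29 to 2.01 CPM after saline. Mmp8 passed without saline replicate 2 or 3 and in no other fit with a library left out.

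Olfml3 is a matrix protein, and fibroblasts are another source of matrix proteins. Of 10 fibroblast and pericyte markers 3 rose, the collagen chains Col1a1 and Col1a2 and the proteoglycan Dcn, and their median log2 fold change was 0.66. The summed level of the list was 427 to 472 CPM in collagenase libraries and 316 to 348 CPM in saline libraries, and its part in the rise of Olfml3 was not tested. Col1a2 measured 49.0, 37.2 and 38.9 CPM in collagenase replicates 1, 2 and 3, against 16.2, 22.1 and 13.8 CPM in saline replicates 1, 2 and 3. The count of 3 was 0 without saline replicate 1 or collagenase replicate 1, 1 without saline replicate 3, collagenase replicate 2 or collagenase replicate 3, and 5 without saline replicate 2.

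Libraries also differed in tissue markers. None of 10 thalamic relay markers passed, and their summed level was 3270 to 3830 CPM in collagenase libraries and 3307 to 4849 CPM in saline libraries, and markers of the labelled region were thus detected in all 6. Choroid plexus genes varied strongly within both groups, with a summed level of 29.9 to 1993 CPM after collagenase and 26.3 to 2618 CPM after saline, and none of these 7 plexus genes passed. The lowest sum of each group was in replicate 3. Of 8 reticular and GABAergic neuron markers 1 fell, the transcription factor Dlx1, and 5 were lower in every collagenase library than in any saline library. The share of all tested genes that were lower in that way was not computed. The median log2 fold change of these 8 was -0.74, and the summed level was 601 to 799 CPM after collagenase and 886 to 1178 CPM after saline. Dlx1 lost its call in 4 of the 6 fits with a library left out and under both FPKM scales, and 3 of the 8 fell with DESeq2 or without saline replicate 2. Of 8 hippocampal and cortical markers none passed, with a median log2 fold change of -1.09 and a summed level of 123 to 153 CPM after collagenase and 187 to 209 CPM after saline. Among them Neurod6, a cortical transcription factor, measured 3.65, 0.538 and 0.570 CPM in collagenase replicates 1, 2 and 3, against 23.0, 39.8 and 0.176 CPM in saline replicates 1, 2 and 3. None of 6 habenula markers passed, and their summed level was 46.4 to 152 CPM after collagenase and 12.6 to 114 CPM after saline, although 3 rose without saline replicate 3. The part of these tissue differences in the results for the 7 identity genes was not tested. Depth was 33603076 to 44815451 total counts a library.

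The genes whose log2 CPM followed the mean of the 7 most closely over the 6 libraries were then picked out. Among 13310 annotated genes the highest Pearson r was that of Lyl1, a transcription factor of blood cells, at 0.998. It measured 3.91, 3.49 and 3.27 CPM in collagenase replicates 1, 2 and 3, against 1.44, 1.54 and 2.11 CPM in saline replicates 1, 2 and 3. The next were Plcg2, Laptm5, Rin3, Pld4, Nxph3, Ly86, Csf3r, Hcls1 and Osmr, with r down to 0.992. These coefficients describe 6 libraries that include the group difference, and with so many genes compared high values are easily reached.

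The closest genes differed from member to member. Fcrls was most like Trem2 (r = 0.998), Ptafr and Csf2rb, and Cx3cr1 most like Slc7a7 (r = 0.997), Mpeg1 and Sla. Tmem119 was most like H2-Q6 (r = 0.999), Parvg and H2-D1, where H2-Q6 and H2-D1 may share reads with other class I genes. Olfml3 was most like Ly86 (r = 0.992), Itga1 and Cep250, of which only Ly86 passed. Selplg, Sall1 and Slc2a5 were each most like genes that did not pass either. Selplg was closest to Vac14 (r = 0.997), Bag3 and Brpf1, Sall1 to Spsb1 (r = 0.995), Ccdc167 and Epb41l2, and Slc2a5 to Vkorc1 (r = 0.980), Psmd5 and Hmgb1.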

How the data were processed

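Poly(A) RNA was captured, fragmented, copied with random hexamers and amplified, per the labels' protocols. Tools named in the submitters' processing notes are HISAT2 2.2.1, StringTie, DESeq2 and FastQC, with the build GRCm38. How strand and multiply matching reads were handled, and which annotation was used, is not given in the sources used here. Per the file headers, the authors deposited raw counts and FPKM for every feature. Total counts were 33603076 to 44815451, and PCR reads are not independent molecules. Lines holding only spilled annotation text (10 to 30 a file) were skipped, and symbols were matched by Ensembl identifier.

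The test was that of edgeR 4.0.16, run in R 4.3.3 on the raw counts (filterByExpr, TMM factors of 0.898 to 1.063, robust quasi-likelihood F-test, two-sided, Benjamini-Hochberg adjustment over 17240 genes, threshold 0.05). The edgeR test alone was tried on simulated counts, drawn with the dispersions fitted to these libraries. CPM are TMM-scaled, and fold changes are collagenase over saline. For the relative scale, log2 CPM had a prior count of 2, and an exact permutation test over libraries compared the groups. Positions came from GENCODE M21 (GRCm38). Alternatives were other scalings, filters and tools, log2(FPKM + 0.1) and log2(FPKM + 1) with limma 3.58.1, DESeq2 1.42.0, a replicate block and leaving out each library. The members and lists were chosen with earlier results of these data known. Named genes are the 7, up to 3 of each list with the smallest p, and those most alike over the libraries (annotated genes with a mean log2 CPM of at least 1); others were chosen after their values were seen. Some genes the rule takes are described only in the counts of their list.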

Additional observations from a re-analysis of the deposited data

How the results depend on the processing

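The number of genes past the threshold was 416 with edgeR, 788 with DESeq2, and 85 to 917 when 1 library was left out; of the 7 identity genes 1 to 4 then passed. Left-out libraries gave log2 fold changes of 0.91 to 1.18 for Cx3cr1, 0.82 to 1.20 for Olfml3 and 0.28 to 0.78 for Selplg. Tmem119 passed with DESeq2 (0.51). Over 11 other settings Fcrls, Cx3cr1 and Olfml3 kept their calls, and Fcrls also kept its call in all 6 fits with a library left out. Against Csf1r alone, the relative values of Cx3cr1, Fcrls and Olfml3 reversed to 0.16, 0.41 and 0.15. Csf1r itself rose by a log2 fold change of 0.88, less than each of these 3 genes. Among the other named genes signs changed for Otx2 (-0.086 to 0.85 with a library left out), Folr1 (-0.85 to 0.85), Aqp1 (-0.25 to 1.41) and Psmd5 (0.0064 with total counts, 0.021 with log2(FPKM + 0.1) and 0.020 with log2(FPKM + 1)), none of which passed. Of the other results for single genes that are not among the 7, 1410 kept their side of the threshold, 118 lost it and 42 gained it. With a replicate block, 302 genes passed (252 higher, 50 lower), and the same 3 identity genes, with log2 fold changes of 1.28 for Fcrls, 1.02 for Cx3cr1 and 1.01 for Olfml3; Cxcr4 (edgeR adjusted p = 0.0841), Hp (0.122), Mmp8 (0.0773) and Dcn (0.109) no longer passed. Deviations from the group means of same-numbered libraries correlated at 0.0439, 0.107 and 0.203, and those of differently numbered libraries at -0.161 to 0.0759. Collagenase replicates 2 and 3 correlated best with the saline library of their own number, and collagenase replicate 1 with saline replicate 2. The labels do not say that equal numbers are pairs, so the main test did not pair them. Whether the numbers mark pairs or a batch was not tested. With 3 libraries a group, the interval was wide for the low gene Slc2a5 (119 to 186 counts, SE 0.23). It was about as wide for Selplg (742 to 1762 counts, SE 0.23).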
